A study of Rattus norvegicus with 12 samples.

Results

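The response of rat aortic rings to tumour necrosis factor alpha (TNF), an inflammatory cytokine, was compared between 2 gels, collagen and fibrin. The quantity described is the TNF effect in fibrin minus the TNF effect in collagen, where each TNF effect is the mean log2 level of the TNF arrays minus that of the control arrays of the same gel. It was fitted for 14324 genes, each represented by its probe set of highest mean, on all 12 arrays of the series, and 177 genes passed the test of the difference. Genes that passed were sorted by how the effect in fibrin stood to that in collagen (weaker, absent, reversed, gained or stronger).

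The aortas came from male Fisher 344 rats aged 1 to 2 months. Rings were set in gels of collagen or of fibrin in serum-free EBM medium, and RNA was taken at day 2. The 4 groups were collagen without TNF, collagen with 10 ng/ml recombinant rat TNF-alpha, fibrin without TNF and fibrin with the same dose of TNF, with 3 samples each. A sample pooled 4 to 6 ring cultures, and 200 ng of RNA from each went onto an Affymetrix array of whole-transcript design. The titles call the replicates biological without saying that they came from different animals, so the p-values reflect only how far these samples spread, which may be technical. The tissue label names collagen gels for the fibrin samples too, and the groups were taken from the titles.

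TNF binds 2 receptors, Tnfrsf1a and Tnfrsf1b, and its main transcriptional route runs through the inhibitor of kappa B kinase complex, which frees nuclear factor kappa B (NF-kB) to switch on chemokine, adhesion and acute-phase genes together with feedback inhibitors such as Nfkbia. Collagen is the resident scaffold of the vessel wall, whereas fibrin is the provisional matrix of clots and wounds. A cultured aortic ring contains smooth muscle cells, adventitial fibroblasts, macrophages and endothelial cells, and the endothelium can sprout into the gel.

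The levels covered a similar range on every array, with medians between 5.89 and 5.98 on the log2 scale, with precision limited by the number of arrays. Over all genes, the standard error (SE) had a median of 0.09 for a TNF effect within a gel and 0.13 for the difference between gels. Over the 12 arrays, the smooth muscle gene Myh11 lay between 9.97 and 11.02, the fibroblast gene Dcn between 13.43 and 13.60, the endothelial gene Cdh5 between 7.74 and 8.29 and the macrophage gene Cd68 between 9.65 and 10.22. The T cell gene Cd3e (3.72 to 4.26) and the neutrophil gene S100a8 (2.47 to 3.05) were low throughout. In such whole cultures, fewer cells of a type and less RNA per cell cannot be told apart.

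TNF changed 912 genes in collagen (6.37% of the genes tested, adjusted p under 0.05), of which 468 rose (3.27%) and 444 fell (3.1%). In fibrin it changed 448 genes (3.13%), with 237 higher (1.65%) and 211 lower (1.47%). For the difference between gels, 177 genes passed (1.24%), 53 with a higher effect in fibrin (0.37%) and 124 with a lower effect (0.866%). The gene of largest adjusted p among those that passed was Nid2, a basement membrane protein, with a difference of -0.93 (adjusted p = 0.0491, or 0.1202 with replicate numbers as a block within each gel), and the nearest gene outside was Cxcr6, a chemokine receptor, with -0.53 (adjusted p = 0.05285). The count fell to 117 without collagen TNF replicate 1, to 103 without collagen TNF replicate 2 and to 112 without fibrin control replicate 2. The count for collagen was 601 and 568 without collagen control replicate 2 and 3, and 589 and 568 without collagen TNF replicate 1 and 2. The count for fibrin was 242 and 237 without fibrin control replicate 2 and 3, and 255 and 287 without fibrin TNF replicate 1 and 3. Of the 177 calls, 99 were kept without collagen TNF replicate 2. In these fits, and in all other settings tried, every gene of the 177 that was measured kept the sign of its difference. The genes were selected for large differences on these same arrays, so a kept sign is not separate evidence.

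Most of the 177 genes responded in collagen and had no call in fibrin. This class, called absent, held 104 genes, of which TNF raised 76 and lowered 28 in collagen. In 23 genes the effect was weaker in fibrin (19 raised by TNF, 4 lowered). TNF changed 8 genes in opposite directions in the 2 gels, changed 35 in fibrin without a call in collagen (15 higher, 20 lower), and changed 2 in both gels with a larger effect in fibrin. The remaining 5 genes passed for the difference only. Absence of a call in fibrin did not establish a null response, and 26 of the 76 raised genes and 8 of the 28 lowered genes had an unadjusted p under 0.05 there.

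These class sizes moved with single arrays. The 104 became 61 without collagen control replicate 3, 67, 53 and 68 without collagen TNF replicate 1, 2 and 3, and 63 without fibrin control replicate 2. The 23 became 15 and 14 without fibrin control replicate 2 and 3, and 14 without fibrin TNF replicate 3. The 35 became 23 without collagen TNF replicate 1, 21 and 23 without fibrin control replicate 2 and 3, 20 without fibrin TNF replicate 1 and 76 without fibrin TNF replicate 2.

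**Figure D1:**
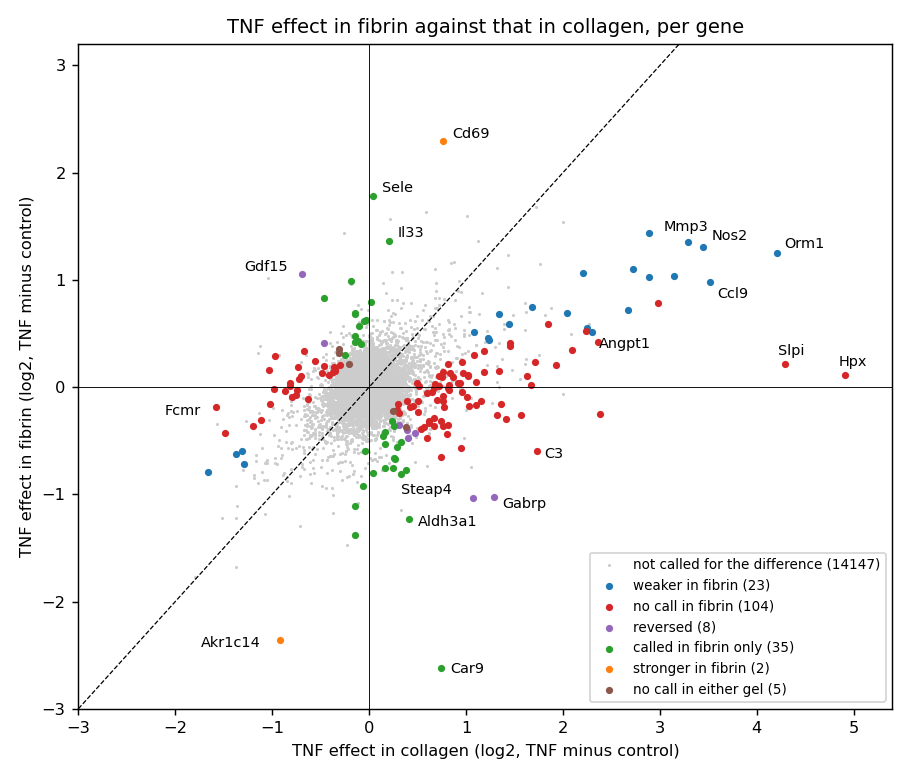
TNF effect in fibrin (vertical, log2) against TNF effect in collagen (horizontal, log2) for 14324 genes, 1 point per gene, coloured by class among the 177 genes that passed for the difference. The dashed line marks equal effects. Of the 104 genes with no call in fibrin, the 76 raised in collagen range from -0.65 to 0.79 in fibrin. The 28 lowered in collagen range from -0.43 to 0.33. Orm1, Nos2 and Mmp3 lie below the dashed line at positive values of both effects, and Car9 is the lowest point at -2.62 in fibrin.

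A difference of the TNF effect was also not the usual outcome for a gene called in collagen. Of the 468 genes raised in collagen, 354 had no call in fibrin, and for 278 of these the difference itself did not pass either. Of the 444 genes lowered in collagen, 364 had no call in fibrin, and 336 of these did not pass for the difference. In the other direction, 112 of 127 genes raised in fibrin but not called in collagen, and 107 of 127 genes lowered there, did not pass for the difference.

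Secreted acute-phase and antiprotease proteins gave the largest losses. Slpi, a secreted inhibitor of neutrophil elastase, read 6.50, 6.31 and 6.50 in collagen controls, 10.62, 10.66 and 10.90 in collagen with TNF, 9.78, 9.96 and 9.75 in fibrin controls and 9.94, 10.51 and 9.70 in fibrin with TNF. The collagen arrays with TNF lay far above their controls, and the fibrin groups overlapped. The TNF effect was 4.29 (SE 0.16, 19.6-fold) in collagen and 0.22 in fibrin (95% interval -0.14 to 0.57), and the difference was -4.07 (adjusted p = 5.104e-06).

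Hpx encodes hemopexin, the plasma scavenger of heme. Its levels were 6.48, 6.28 and 5.45 in collagen controls, 11.56, 11.28 and 10.12 in collagen with TNF, 11.90, 11.39 and 9.66 in fibrin controls and 11.50, 11.59 and 10.20 in fibrin with TNF. The replicate 3 array was the lowest of each group, and the fibrin groups overlapped. The difference was -4.80 (SE 0.79, adjusted p = 0.01065), from an effect of 4.91 in collagen and 0.11 in fibrin (95% interval -1.09 to 1.32).

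C3, the central complement protein, read 6.52, 6.78 and 6.63 in collagen controls and 8.56, 8.19 and 8.38 with TNF. In fibrin it read 8.84, 8.67 and 8.60 without TNF and 7.84, 8.57 and 7.92 with TNF. In fibrin all 3 TNF arrays lay below all 3 controls, but the effect of -0.59 (95% interval -0.95 to -0.23) did not pass (adjusted p = 0.08266). The difference between gels was -2.32 (SE 0.23, adjusted p = 0.0004822).

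Orm1, encoding the plasma carrier orosomucoid, kept a smaller response in fibrin. It read 5.20, 4.96 and 4.92 in collagen controls, 9.60, 9.18 and 8.91 in collagen with TNF, 10.27, 9.97 and 9.59 in fibrin controls and 11.69, 10.83 and 11.06 in fibrin with TNF. No TNF array overlapped the controls of its own gel. TNF raised it by 4.21 (18.5-fold) in collagen and by 1.25 (2.38-fold) in fibrin, so the effects differed by -2.96 (SE 0.32, adjusted p = 0.0008577).

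Of 23 measured members of the acute-phase and antiprotease list, 9 rose in collagen and all 9 of them had a lower effect in fibrin: Slpi, Hpx, Hp, Orm1, Lcn2, Serpina3n, Ptx3, Hamp and Timp1. In fibrin only Orm1 and Ptx3 rose, and Serpina3n fell. Over all genes, 3.27% rose in collagen and 0.866% had a lower effect in fibrin. Between gels, 12 of the 23 differed at an unadjusted p under 0.05 in limma (52.2%, against 13.1% of all genes). The list's median effect was 0.16 in collagen and 0.09 in fibrin, and its median difference was -0.24, against 0.01 over all genes. Lcn2, an iron-binding protein of innate immunity, had an effect of 1.32 in collagen and -0.26 in fibrin (95% interval -0.70 to 0.18), with a difference of -1.58 (adjusted p = 0.01868). That call was lost without collagen TNF replicate 1 or collagen TNF replicate 2 (adjusted p up to 0.05548).

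Scgb1b24, a secretoglobin, moved by 2.39 in collagen and -0.25 in fibrin, and its difference of -2.64 had an adjusted p of 0.003341. Secretoglobin copies are near-identical, and 2 probe sets assigned to this gene held identical values, so it is uncertain as a single gene. Timp1, the secreted inhibitor of matrix metalloproteinases, rose by 1.02 in collagen and had an effect of 0.11 in fibrin (95% interval -0.06 to 0.28), where its levels of 12.86 to 13.12 without TNF were close to the 13.08 to 13.12 with TNF.

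Other genes of large loss had varied roles. Pla2g2a, a secreted phospholipase, rose by 2.98 in collagen and had an effect of 0.79 in fibrin (95% interval 0.12 to 1.45), with a difference of -2.20 (adjusted p = 0.0275). Rgs2, a regulator of G protein signalling, had effects of 1.57 and -0.26 (difference -1.83, adjusted p = 0.02166). Each of these calls was lost without any of 7 of the 12 arrays. Stc2, the secreted protein stanniocalcin 2, had effects of 0.81 and -0.36 (difference -1.17, adjusted p = 0.009191), and Cyp1b1, a cytochrome P450, of 1.46 and 0.39 (-1.07, adjusted p = 0.004431).

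**Figure D2:**
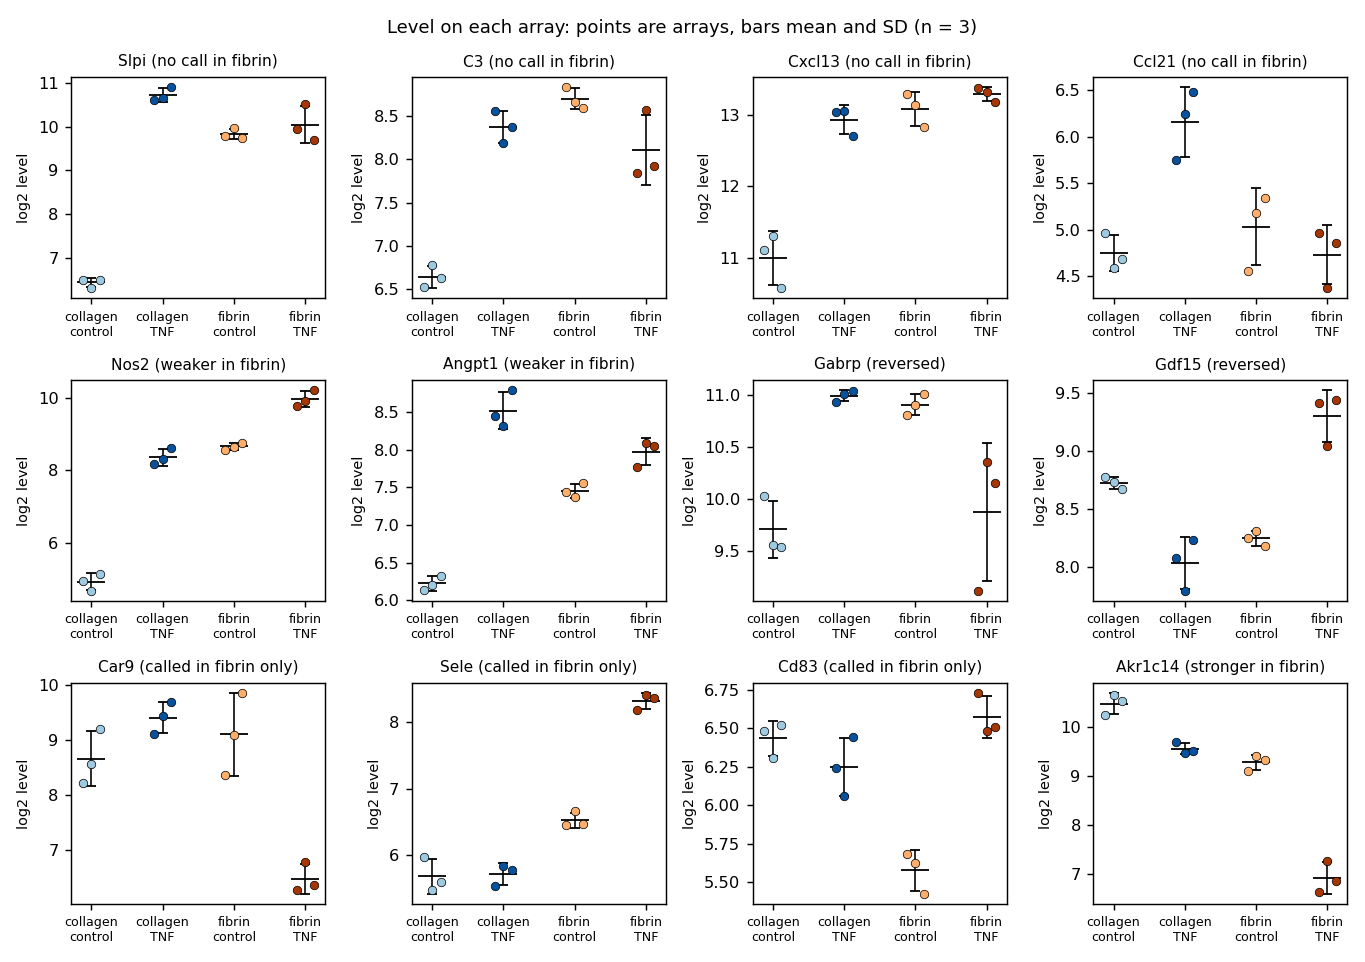
Log2 level of 12 genes on each array (points), with the mean and SD of the 3 arrays of a group (bars), for both gels without and with TNF. In Slpi, C3 and Cxcl13 the fibrin controls stand well above the collagen controls, in Ccl21 they stand near them, and in Gabrp and Gdf15 the TNF arrays move in opposite directions in the 2 gels.

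Chemokines, the secreted attractants of leukocytes, made up the next large group. Of 34 measured chemokine genes, 16 rose in collagen and 7 in fibrin, while Cxcl12 fell in both. The effect was lower in fibrin for 9 genes (Ccl2, Ccl7, Ccl9, Ccl12, Ccl19, Ccl20, Ccl21, Cxcl13 and Cxcl16), and 0 passed as higher. Over all genes 0.866% passed as lower. In either direction, 20 of the 34 differed at an unadjusted p under 0.05 in limma (58.8%, against 13.1% of all genes). The median effect was 0.63 in collagen and 0.36 in fibrin, and the median difference was -0.37, against 0.01 over all genes. With replicate numbers as a block within each gel, 1 passed as higher. Ccl5, an attractant of T cells, rose in fibrin, by 1.63, and had an effect of 0.59 in collagen. Its difference of 1.04 passed neither without that block (adjusted p = 0.1192) nor with it (adjusted p = 0.1072).

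Ccl9, a macrophage-attracting chemokine, read 5.48, 5.42 and 4.94 in collagen controls, 8.85, 8.57 and 8.97 in collagen with TNF, 7.02, 7.07 and 7.20 in fibrin controls and 8.46, 7.94 and 7.83 in fibrin with TNF. TNF arrays and controls were apart in both gels. The effect was 3.52 in collagen and 0.98 in fibrin, and the difference was -2.53 (SE 0.24, adjusted p = 0.0004338). Ccl7 and Ccl19, ligands of Ccr2 and Ccr7, were weaker in the same way, with differences of -1.95 (adjusted p = 0.001948) and -1.86 (adjusted p = 0.0008577).

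Cxcl13, the B cell attractant, read 11.11, 11.31 and 10.58 in collagen controls, 13.04, 13.05 and 12.70 with TNF, 13.29, 13.14 and 12.82 in fibrin controls and 13.37, 13.31 and 13.17 in fibrin with TNF. The fibrin groups overlapped, at levels near the highest value of any probe set on these arrays (13.88 to 14.07). How far that limit bears on its effect in fibrin, 0.20 (95% interval -0.17 to 0.57), was not tested. The difference was -1.73 (adjusted p = 0.004332).

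Ccl12 and Ccl2, which attract monocytes, rose by 2.37 and 1.85 in collagen and had effects of 0.42 and 0.59 in fibrin. Their differences were -1.95 (adjusted p = 0.006187) and -1.26 (adjusted p = 0.03448), and the Ccl2 call was lost without any of 9 of the 12 arrays (adjusted p up to 0.0943). Ccl20, the ligand of Ccr6, had a difference of -1.75 (adjusted p = 0.02346) that did not pass with replicate numbers as a block within each gel (adjusted p = 0.06173) or without any of 5 of the 12 arrays.

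**Figure D3:**
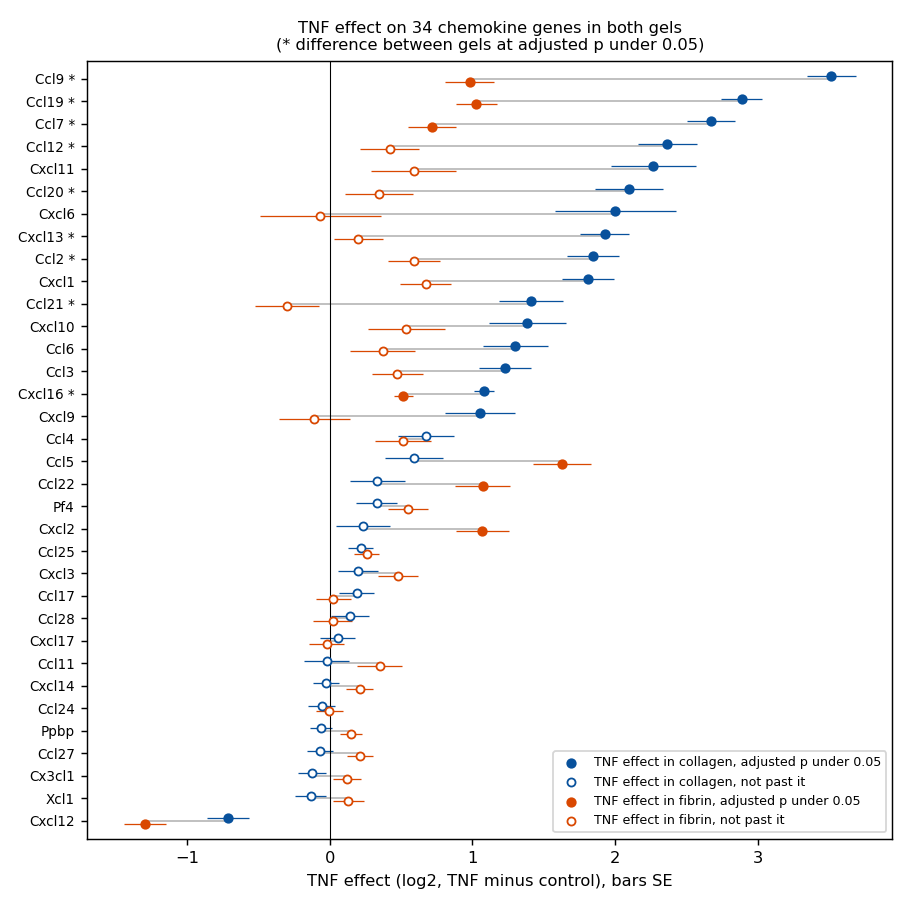
TNF effect (log2, with SE) on 34 chemokine genes in collagen (blue) and fibrin (orange), ordered by the effect in collagen. Filled points passed at an adjusted p under 0.05 within that gel, and stars mark the 9 genes whose difference passed, from Ccl9 at -2.53 to Cxcl16 at -0.57.

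Enzymes of mediator synthesis and of matrix breakdown were among the genes with a weaker rise. Nos2, the inducible nitric oxide synthase, read 4.94, 4.67 and 5.13 in collagen controls, 8.16, 8.30 and 8.61 with TNF, 8.56, 8.65 and 8.76 in fibrin controls and 9.78, 9.91 and 10.21 in fibrin with TNF. Every fibrin array was above all collagen controls, and TNF still raised Nos2 in fibrin, by 1.31 against 3.44 in collagen. The difference was -2.13 (SE 0.20, adjusted p = 0.0004338). Ptges, which makes prostaglandin E2, rose by 2.04 in collagen and 0.69 in fibrin (difference -1.35, adjusted p = 0.003341).

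Of 27 measured genes of the list of matrix metalloproteinases and inhibitors, 10 rose and 3 fell in collagen, and 2 rose and 2 fell in fibrin. In fibrin 5 had a lower effect (Mmp3, Mmp9, Timp1, Adamts4 and Serpine2). The list is broader than its name, as it holds the ADAMTS protease Adamts4 and the serine protease inhibitor Serpine2. Timp1 is also counted in the acute-phase and antiprotease list. The 2 that rose in fibrin became 1 without fibrin control replicate 3. The 2 that fell became 0 without fibrin control replicate 2, and 1 with the replicate block within each gel and without each other array except collagen control replicate 1 and fibrin control replicate 1. The count of 5 was 3 without collagen TNF replicate 2, fibrin control replicate 2 or fibrin TNF replicate 1. Between gels, 12 of the 27 differed at an unadjusted p under 0.05 in limma (44.4%, against 13.1% of all genes). Mmp3, stromelysin, read 8.37, 8.27 and 7.97 in collagen controls, 11.49, 11.51 and 11.49 with TNF, 10.97, 10.48 and 9.96 in fibrin controls and 11.99, 11.96 and 11.52 in fibrin with TNF. TNF arrays were above controls in both gels, and the difference was -1.94 (adjusted p = 0.006187). Mmp9, a gelatinase, had an effect of 2.23 in collagen and 0.53 in fibrin (95% interval 0.13 to 0.92), with a difference of -1.71 (adjusted p = 0.006721). Scin, an actin-severing protein, and Cyp7b1, an oxysterol hydroxylase, were weaker by -2.11 (adjusted p = 0.004431) and -1.69 (adjusted p = 0.0004711). For Cyp7b1 the effect in fibrin of 0.56 did not pass with the replicate block within each gel (adjusted p = 0.05752).

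In untreated cultures at day 2, most of these genes were higher in fibrin than in collagen. The fibrin control mean was above the collagen control mean for 75 of the 76 absent genes raised in collagen and for all 19 weaker ones. The median of fibrin control minus collagen control was 0.86 for the 76 genes and 1.66 for the 19, against -0.01 over all genes. The median of fibrin control minus collagen TNF was 0.02 for the 76 genes. These quantities and the difference of the TNF effect are computed from the same control arrays, so the counts are a description and not separate evidence.

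A few absent genes had controls at a like level in both gels, and they were picked after their values were seen. Ccl21, a chemokine of lymphatic vessels, read 4.96, 4.59 and 4.69 in collagen controls, 5.75, 6.24 and 6.48 with TNF, 4.56, 5.18 and 5.34 in fibrin controls and 4.97, 4.37 and 4.85 in fibrin with TNF. The collagen arrays with TNF stood apart from the rest. The effect was 1.41 in collagen and -0.30 in fibrin (95% interval -0.79 to 0.19), and the difference of -1.71 (adjusted p = 0.02122) did not pass with the replicate block within each gel (adjusted p = 0.06814) or without any of 5 of the 12 arrays. Rat Ccl21 has close copies, so its probe set may read more than 1 gene.

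Ucma, a secreted matrix protein first known from cartilage, read 6.78, 7.07 and 7.16 in collagen controls, 8.20, 7.92 and 8.37 with TNF, 6.94, 7.27 and 7.13 in fibrin controls and 6.99, 7.02 and 6.95 in fibrin with TNF. Here too the collagen arrays with TNF stood alone, with a difference of -1.28 (adjusted p = 0.003578). Cybb, the catalytic subunit of the phagocyte NADPH oxidase, rose by 0.84 in collagen from controls of 10.10 to 10.26 and had an effect of 0.13 in fibrin from controls of 10.10 to 10.32 (difference -0.70, adjusted p = 0.01655). Gap43, a growth-associated protein of neurons, rose by 0.80 in collagen and had an effect of -0.43 in fibrin, which passed there with the replicate block within each gel (adjusted p = 0.02509) but not without it (adjusted p = 0.09725). Unlike in the other genes of this group, its controls did not overlap, at 6.87 to 7.34 in collagen and 6.58 to 6.79 in fibrin. Gap43 was the 1 absent gene raised in collagen whose fibrin control mean lay below the collagen control mean.

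TNF lowered 444 genes in collagen, and 28 of these had no call and a higher effect in fibrin. Fcmr, an Fc receptor for immunoglobulin M, read 7.68, 7.39 and 7.54 in collagen controls, 5.87, 6.03 and 5.97 with TNF, 5.57, 5.84 and 5.77 in fibrin controls and 5.60, 5.49 and 5.52 in fibrin with TNF. It was low in 3 groups and high only in collagen controls. The effect was -1.58 in collagen and -0.19 in fibrin (95% interval -0.39 to 0.01), and the difference was 1.39 (SE 0.13, adjusted p = 0.0004338). Dio3, which inactivates thyroid hormone, showed the same order, with a difference of 1.20 (adjusted p = 0.008412).

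Kit, the receptor of stem cell factor and a mast cell marker, fell by 0.68 in collagen and had an effect of 0.33 in fibrin (95% interval 0.07 to 0.60), with a difference of 1.01 (adjusted p = 0.01342). The other 9 measured mast cell markers did not pass for the difference, and the mean of the list lay between 4.25 and 4.44 on every array. Itm2a, a type II membrane protein, had a difference of 0.97 (adjusted p = 0.0187), Cytl1, a secreted cytokine-like protein, one of 1.06 (adjusted p = 0.0487), and the uncharacterized gene 6330403K07Rikl one of 1.26 (adjusted p = 0.03051). With the replicate block within each gel, Itm2a (adjusted p = 0.05338) and 6330403K07Rikl (adjusted p = 0.0837) did not pass. The calls were lost without any of 4 arrays for Itm2a, 6 for 6330403K07Rikl and 10 for Cytl1, whose call was also lost with quantile normalization and with array weights (adjusted p up to 0.1078).

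All 4 genes lowered more weakly in fibrin had lower control levels in fibrin than in collagen. Akr1c15, an aldo-keto reductase, read 8.17, 8.36 and 8.24 in collagen controls, 6.78, 6.37 and 6.64 with TNF, 6.87, 6.86 and 6.87 in fibrin controls and 6.01, 6.16 and 6.05 in fibrin with TNF. TNF arrays lay below controls in both gels, and the difference was 0.86 (adjusted p = 0.008202). The others were Akr1c19 (0.75, adjusted p = 0.04147), Nox4, an NADPH oxidase of smooth muscle and fibroblasts (0.72, adjusted p = 0.04362), and Mfap5, a microfibril protein (0.57, adjusted p = 0.02945). These 3 calls were lost without any of 10, 11 and 8 of the 12 arrays respectively, and the Nox4 call also with the replicate block within each gel (adjusted p = 0.07807).

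In 8 genes TNF acted in opposite directions. Gabrp, a subunit of the GABA type A receptor, read 10.03, 9.55 and 9.54 in collagen controls, 10.93, 11.01 and 11.03 with TNF, 10.81, 10.90 and 11.01 in fibrin controls and 9.12, 10.36 and 10.15 in fibrin with TNF. The collagen arrays with TNF and the fibrin controls occupied the same high range, and the other groups were lower. The effect was 1.28 in collagen and -1.03 in fibrin, with a difference of -2.31 (SE 0.35, adjusted p = 0.006187).

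Steap4, a metalloreductase, followed the same order. It read 8.17, 7.94 and 7.96 in collagen controls, 9.32, 9.05 and 8.93 with TNF, 9.49, 9.64 and 9.40 in fibrin controls and 8.03, 8.95 and 8.45 in fibrin with TNF. TNF raised it by 1.08 in collagen and lowered it by 1.03 in fibrin (difference -2.11, adjusted p = 0.002056). Serpina3n, a serine protease inhibitor of the acute phase, rose by 0.48 in collagen and fell by 0.43 in fibrin (difference -0.91, adjusted p = 0.0009007).

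Smaller reversals from a rise to a fall were found in Pfkl, the liver-type phosphofructokinase of glycolysis (difference -0.79, adjusted p = 0.01134), in Xpnpep2, an aminopeptidase (-0.66, adjusted p = 0.01342), and in Fxyd6, a regulator of the sodium pump (-0.87, adjusted p = 0.01405). Xpnpep2 lay between 3.81 and 4.36 on all arrays, near the level of Cd3e. With the replicate block within each gel, Fxyd6 did not pass for the difference (adjusted p = 0.05209), in collagen (adjusted p = 0.08789) or in fibrin (adjusted p = 0.07295).

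Gdf15 and Clybl were lowered by TNF in collagen and raised in fibrin. Gdf15, a stress-induced cytokine, read 8.77, 8.73 and 8.67 in collagen controls, 8.08, 7.79 and 8.23 with TNF, 8.25, 8.31 and 8.18 in fibrin controls and 9.41, 9.04 and 9.44 in fibrin with TNF. No TNF array overlapped its controls in either gel, and the fibrin arrays with TNF were the highest of all. The effect was -0.69 in collagen and 1.05 in fibrin, so the effects differed by 1.74 (SE 0.17, adjusted p = 0.0004338). Clybl, a mitochondrial enzyme of citramalate metabolism, had a difference of 0.87 (adjusted p = 0.009385). The number of reversed genes moved with single arrays. It was 3 without collagen TNF replicate 2 or 3 or fibrin control replicate 3, and 4 without collagen control replicate 2, collagen TNF replicate 1 or fibrin control replicate 2. It was 5 without collagen control replicate 3 or fibrin TNF replicate 1 or 3, 17 without fibrin TNF replicate 2, and 15 with the replicate block within each gel.

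Genes of hypoxia and glycolysis had the lowest median difference of the 18 pathway lists. Many of them are targets of hypoxia-inducible factor (HIF), which raises glucose uptake, lactate output and acid-base enzymes when oxygen is low. Promoters of 3 members are printed because each holds the HIF core motif ACGTG, with Car9 and Pdk1 called in fibrin and Ldha in collagen. The sequences come from RefSeq (GRCr8), run from 250 bases before to 50 after the gene start, and carry the motif (either strand) in capitals: Car9 at chr5:62558774-62559073, Ldha at chr1:106507842-106508141 and Pdk1 at chr3:77113264-77113563, all on the plus strand.
Car9: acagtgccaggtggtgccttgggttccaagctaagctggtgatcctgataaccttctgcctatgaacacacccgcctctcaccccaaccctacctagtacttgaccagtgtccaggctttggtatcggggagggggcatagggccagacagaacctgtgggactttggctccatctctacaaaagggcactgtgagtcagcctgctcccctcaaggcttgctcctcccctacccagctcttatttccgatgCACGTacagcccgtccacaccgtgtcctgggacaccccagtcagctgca
Ldha: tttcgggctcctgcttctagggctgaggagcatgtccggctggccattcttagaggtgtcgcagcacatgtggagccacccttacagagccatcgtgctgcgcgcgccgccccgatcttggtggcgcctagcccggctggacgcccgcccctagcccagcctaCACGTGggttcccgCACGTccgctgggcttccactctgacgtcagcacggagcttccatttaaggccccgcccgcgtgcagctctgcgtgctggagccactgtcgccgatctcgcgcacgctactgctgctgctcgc
Pdk1: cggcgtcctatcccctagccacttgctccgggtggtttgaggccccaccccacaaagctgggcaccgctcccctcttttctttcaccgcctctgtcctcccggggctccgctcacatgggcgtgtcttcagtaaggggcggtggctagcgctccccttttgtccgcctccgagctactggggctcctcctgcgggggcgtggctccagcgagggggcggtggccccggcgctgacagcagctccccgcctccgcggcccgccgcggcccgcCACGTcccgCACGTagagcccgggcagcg
The motif was found in 60.0% of the 35 promoters matched to this list and in 22.3% of the 11805 promoters matched to all genes tested. As the list was made of such genes, many of them HIF targets, its high share says nothing about the TNF effect. It was found in 23.3% of 60 promoters of absent genes raised in collagen and in 18.8% of 16 promoters of gained genes lowered in fibrin. Among other members called for the difference, Higd1a held it, and Slc16a3, Pfkl and Gys1 did not. The motif is also part of the E-box CACGTG, which Ldha holds, and a match does not show that a factor binds there.

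Of 41 measured genes of this list, 10 rose in collagen and 0 in fibrin, where 5 fell (Car9, Pfkl, Aldoc, Pdk1 and Ndrg1), and 18 had an unadjusted p under 0.05 in fibrin in limma, against 2192 of all 14324 genes. The median effect was 0.20 in collagen and -0.17 in fibrin. The effect was lower in fibrin for 8 genes and higher for 0, and 29 of the 41 differed at an unadjusted p under 0.05 (70.7%, against 13.1% of all genes). The median difference was -0.50, against 0.01 over all genes. These counts moved with single arrays. The 8 became 4 without collagen control replicate 1 or 3, fibrin control replicate 3 or fibrin TNF replicate 1 or 3, and 3 without collagen TNF replicate 2 or 3 or fibrin control replicate 2. The 10 became 4 without collagen control replicate 1 or collagen TNF replicate 2 or 3, and 6 without collagen control replicate 2 or 3. The 5 became 9 without fibrin control replicate 1, 2 without fibrin control replicate 2 or 3 or fibrin TNF replicate 1 or 3, and 10 with the replicate block within each gel.

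Car9, the carbonic anhydrase that acidifies the space around hypoxic cells, read 8.23, 8.56 and 9.21 in collagen controls, 9.11, 9.43 and 9.69 with TNF, 8.36, 9.09 and 9.86 in fibrin controls and 6.28, 6.80 and 6.38 in fibrin with TNF. The fibrin arrays with TNF lay below all others, the other 3 groups overlapped, and the replicate 1 array was the lowest of each group. The effect was 0.75 in collagen, which did not pass (adjusted p = 0.2397), and -2.62 in fibrin (6.14-fold lower). The difference was -3.36 (SE 0.46, adjusted p = 0.003578).

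Slc16a3, the lactate exporter, read 9.08, 9.20 and 9.02 in collagen controls, 10.01, 10.15 and 10.16 with TNF, 9.77, 9.88 and 10.11 in fibrin controls and 9.94, 9.86 and 9.69 in fibrin with TNF. Collagen controls were the low group and the fibrin groups overlapped. The effect was 1.01 in collagen and -0.09 in fibrin (95% interval -0.30 to 0.12), a difference of -1.10 (adjusted p = 0.002571). Pdk1, which keeps pyruvate out of the mitochondrion, had effects of 0.29 and -0.56 (difference -0.85, adjusted p = 0.01868), a call lost without collagen TNF replicate 2 or 3 or fibrin control replicate 2.

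The rest of the 8 were Pfkl, given above, Ndrg1, a stress-regulated gene (difference -0.84, adjusted p = 0.02648), Higd1a, a mitochondrial protein (-1.08, adjusted p = 0.0275), Gys1, the glycogen synthase of muscle (-0.97, adjusted p = 0.0275), and Ldha, the lactate dehydrogenase subunit (-0.50, adjusted p = 0.03095). Each of the last 4 lost its call without at least 8 of the 12 arrays, and Ldha also with the replicate block within each gel (adjusted p = 0.07135, and 0.0601 for collagen alone). With that block Higd1a passed as lower in fibrin (adjusted p = 0.02867). Other members had no call for the difference. Adm, encoding adrenomedullin, had effects of 1.49 in collagen and 0.67 in fibrin, the latter past the threshold only with the replicate block within each gel (adjusted p = 0.02541 against 0.05263), and its difference of -0.82 did not pass (adjusted p = 0.1396). Vegfa, the vascular growth factor, had effects of 0.51 and -0.17 of which the first passed with that block (adjusted p = 0.04078), and a difference of -0.68 (adjusted p = 0.1754), and the glucose transporter Slc2a1 had a difference of -0.52 (adjusted p = 0.1105).

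**Figure D4:**
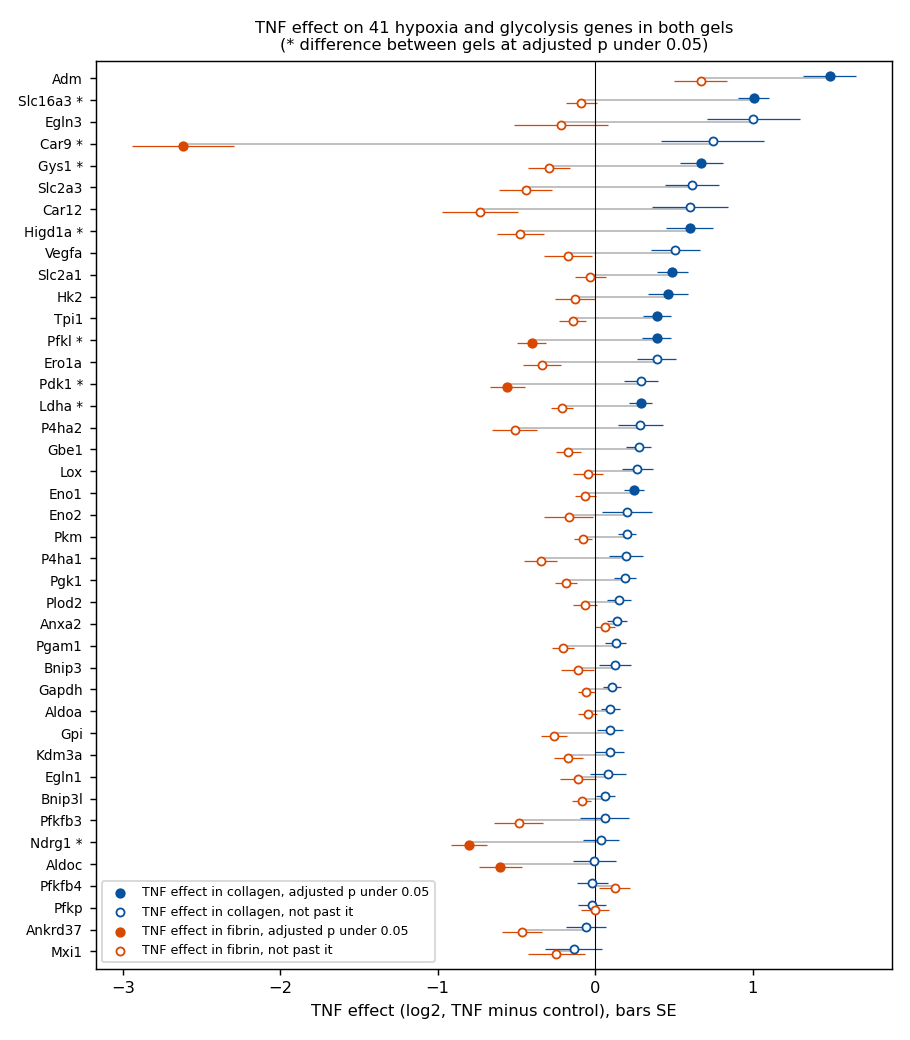
TNF effect (log2, with SE) on 41 hypoxia and glycolysis genes in collagen (blue) and fibrin (orange), ordered by the effect in collagen, with filled points at an adjusted p under 0.05 within that gel. Most blue points lie right of 0 and most orange points left of it, Car9 reaches -2.62 in fibrin, and stars mark the 8 genes whose difference passed.

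TNF raised 15 genes in fibrin without a call in collagen and with a difference between gels. Sele, E-selectin, the endothelial receptor on which leukocytes roll, read 5.98, 5.49 and 5.60 in collagen controls, 5.54, 5.84 and 5.79 with TNF, 6.46, 6.66 and 6.47 in fibrin controls and 8.18, 8.41 and 8.35 in fibrin with TNF. The collagen groups overlapped, and the fibrin arrays with TNF stood above all others. The effect was 0.04 in collagen and 1.79 in fibrin (3.45-fold), and the difference was 1.75 (SE 0.18, adjusted p = 0.0004822). It was the 1 gene of 16 measured leukocyte adhesion genes to pass for the difference, and 5 of the 16 differed at an unadjusted p under 0.05 in limma (31.2%, against 13.1% of all genes).

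Cd83, a surface protein of activated immune cells, read 6.48, 6.31 and 6.52 in collagen controls, 6.24, 6.06 and 6.44 with TNF, 5.68, 5.62 and 5.43 in fibrin controls and 6.73, 6.48 and 6.51 in fibrin with TNF. Fibrin controls were the low group, unlike in Sele. The effect was -0.19 in collagen and 0.99 in fibrin, a difference of 1.18 (adjusted p = 0.003222). Csf1, the growth factor of macrophages, read 10.85, 10.90 and 10.72 in collagen controls, 10.87, 10.71 and 10.78 with TNF, 10.54, 10.63 and 10.62 in fibrin controls and 11.32, 11.12 and 11.23 in fibrin with TNF (difference 0.66, adjusted p = 0.009912). Il33, an alarmin of stromal and endothelial nuclei, had effects of 0.21 and 1.37 (difference 1.16, adjusted p = 0.03448), a call lost without any of 8 of the 12 arrays.

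Olr1, a scavenger receptor for oxidized lipoprotein, had a difference of 1.30 (adjusted p = 0.03326), Pir, a nuclear iron-binding protein, one of 0.83 (adjusted p = 0.02064), and Depp1, a regulator of autophagy, one of 0.84 (adjusted p = 0.0275). With the replicate block within each gel, Olr1 (adjusted p = 0.05209) and Depp1 (adjusted p = 0.05195) did not pass. The calls were lost without any of 9 arrays for Olr1, 6 for Depp1 and 5 for Pir. Cd69, an early activation marker of leukocytes, was the 1 gene raised in both gels with a larger effect in fibrin. It read 4.94, 4.46 and 4.16 in collagen controls, 5.43, 5.07 and 5.36 with TNF, 5.50, 5.11 and 4.77 in fibrin controls and 7.60, 7.49 and 7.16 in fibrin with TNF. The effect was 0.77 in collagen and 2.29 in fibrin, a difference of 1.53 (adjusted p = 0.02491) that was lost without any of 5 of the 12 arrays (adjusted p up to 0.07314).

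A list of antioxidant genes and targets of the factor NRF2, many of which conjugate or reduce reactive compounds, held 2 of the 35 gained genes. Of 29 measured members, 7 rose in collagen and 9 in fibrin, and the effect was higher in fibrin for 3 and lower for 2 (Sod2 and Sod3). The 2 became 0 without collagen TNF replicate 1 or 2, fibrin control replicate 2 or fibrin TNF replicate 3, and 1 without any collagen control, fibrin control replicate 1 or fibrin TNF replicate 1. The median difference was 0.16, against 0.01 over all genes, and 13 of the 29 differed at an unadjusted p under 0.05 in limma (44.8%, against 13.1% of all genes). Gstm1, a glutathione transferase, read 9.68, 9.71 and 9.65 in collagen controls, 9.63, 9.69 and 9.56 with TNF, 9.94, 9.85 and 9.69 in fibrin controls and 10.55, 10.38 and 10.40 in fibrin with TNF. The fibrin arrays with TNF were above all others, and the difference was 0.67 (adjusted p = 0.01049). Its relative Gstp1 had a difference of 0.54 (adjusted p = 0.01786). Gclm, a subunit of the enzyme that starts glutathione synthesis, had effects of -0.31 and 0.32, called in neither gel, and a difference of 0.63 (adjusted p = 0.02536) that did not pass with the replicate block within each gel (adjusted p = 0.05253) or without any of 6 of the 12 arrays.

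TNF lowered 20 genes in fibrin without a call in collagen and with a difference between gels, Car9, Pdk1 and Ndrg1 among them. Aldh3a1, an aldehyde dehydrogenase, read 7.10, 7.45 and 7.58 in collagen controls, 7.80, 7.83 and 7.73 with TNF, 7.62, 7.89 and 7.47 in fibrin controls and 6.55, 6.48 and 6.26 in fibrin with TNF. The fibrin arrays with TNF lay below all others, and the difference was -1.64 (SE 0.18, adjusted p = 0.001059). Wnt16, a secreted Wnt ligand, had effects of -0.15 in collagen and -1.38 in fibrin (difference -1.23, adjusted p = 0.01394), Rasd1, a Ras-related GTPase, of 0.38 and -0.77 (-1.15, adjusted p = 0.007461), and Rxfp3, a relaxin-family receptor, of 0.32 and -0.81 (-1.14, adjusted p = 0.01429).

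Akr1c14, a hydroxysteroid dehydrogenase, was the 1 gene lowered in both gels with a larger effect in fibrin. It read 10.23, 10.65 and 10.52 in collagen controls, 9.68, 9.47 and 9.50 with TNF, 9.10, 9.39 and 9.33 in fibrin controls and 6.63, 7.26 and 6.87 in fibrin with TNF. No TNF array overlapped its controls, and the drop was largest in fibrin. The effect was -0.92 in collagen and -2.35 in fibrin, a difference of -1.44 (adjusted p = 0.006187). Its relatives Akr1c15 and Akr1c19 went the other way, with the smaller fall in fibrin, and as members of a family of similar sequence all 3 are uncertain as single genes. Of 33 measured genes of steroid and xenobiotic metabolism, 5 rose and 11 fell in collagen, 5 rose and 6 fell in fibrin, and the difference was higher for 4 and lower for 4. The 4 higher became 1 or 2 in 10 of the 12 fits that left out 1 array, all but those without collagen control replicate 1 and fibrin TNF replicate 2. Between gels, 14 of the 33 differed at an unadjusted p under 0.05 in limma (42.4%, against 13.1% of all genes). Sult1a1, a sulfotransferase, fell by 1.80 in collagen and by 1.77 in fibrin, with a difference of 0.03 (95% interval -0.54 to 0.60).

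Genes of the NF-kB pathway itself mostly had no call for the difference. The same held for the genes tested as a whole, of which only 1.24% passed. Among 21 measured components and feedback genes, 11 rose in collagen and 7 in fibrin, and only Nfkbiz, an inducible inhibitor-family protein, passed for the difference (-0.56, adjusted p = 0.01655). At an unadjusted p under 0.05, 6 of the 21 differed (28.6%, against 13.1% of all genes). Without collagen TNF replicate 2, Nfkbiz did not pass (adjusted p = 0.0541). The 11 became 7 without collagen control replicate 2 or 3 or collagen TNF replicate 1. The median effect was 0.28 in collagen and 0.22 in fibrin.

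Nfkbia, a feedback inhibitor of NF-kB, read 10.07, 9.98 and 10.03 in collagen controls, 10.70, 10.70 and 10.78 with TNF, 10.88, 10.77 and 10.86 in fibrin controls and 11.62, 11.48 and 11.62 in fibrin with TNF. TNF arrays were above controls in both gels. The effect was 0.70 in collagen and 0.74 in fibrin, and the 95% interval of the difference ran from -0.16 to 0.24. The adhesion receptor Vcam1 rose by 0.57 and 0.54 (difference -0.03, 95% interval -0.26 to 0.20), and Icam1 by 0.82 and 0.53 (-0.29, -0.54 to -0.03, adjusted p = 0.3164).

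Il6, the inducer of the acute phase, read 6.39, 6.07 and 5.59 in collagen controls, 7.53, 7.92 and 7.76 with TNF, 9.08, 8.52 and 8.17 in fibrin controls and 10.56, 10.07 and 10.19 in fibrin with TNF. Its controls were higher in fibrin than in collagen, and it rose in both gels, by 1.68 in fibrin and 1.72 in collagen. The 95% interval of its difference, -0.75 to 0.68, was wide. Lif, a cytokine that shares its signalling receptor subunit, rose by 0.93 and 0.99 (95% interval of the difference -0.42 to 0.55). Birc3, an inhibitor of apoptosis in the TNF receptor complex, rose by 1.43 in collagen and 0.93 in fibrin, and its difference of -0.50 did not pass (adjusted p = 0.1493).

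The TNF receptors did not pass for the difference. Tnfrsf1a had effects of 0.09 in collagen and -0.11 in fibrin (95% interval of the difference -0.42 to 0.02). Tnfrsf1b rose by 0.47 in collagen and had an effect of 0.22 in fibrin (-0.58 to 0.09). For Tnf itself the interval was -0.70 to 0.26.

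Promoters of 3 genes are printed for the contrast of classes, since each holds the NF-kB consensus, in capitals: Cd83, gained in fibrin (chr17:21112628-21112927, minus strand), Ccl9, weaker in fibrin (chr10:68868828-68869127, minus strand), and Ccl20, absent in fibrin (chr9:91836909-91837208, plus strand), from RefSeq (GRCr8) and over the same window.
Cd83: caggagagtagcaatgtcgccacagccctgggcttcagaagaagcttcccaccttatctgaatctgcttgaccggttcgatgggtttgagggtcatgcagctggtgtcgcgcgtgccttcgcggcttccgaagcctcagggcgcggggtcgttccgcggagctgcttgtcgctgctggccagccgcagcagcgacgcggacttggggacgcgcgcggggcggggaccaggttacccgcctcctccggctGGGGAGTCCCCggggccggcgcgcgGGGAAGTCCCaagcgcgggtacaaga
Ccl9: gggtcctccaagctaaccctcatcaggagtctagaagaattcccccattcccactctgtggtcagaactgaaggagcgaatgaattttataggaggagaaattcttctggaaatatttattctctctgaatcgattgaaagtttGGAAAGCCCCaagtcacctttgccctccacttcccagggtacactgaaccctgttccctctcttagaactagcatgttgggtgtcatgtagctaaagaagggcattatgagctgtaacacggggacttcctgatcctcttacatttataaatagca
Ccl20: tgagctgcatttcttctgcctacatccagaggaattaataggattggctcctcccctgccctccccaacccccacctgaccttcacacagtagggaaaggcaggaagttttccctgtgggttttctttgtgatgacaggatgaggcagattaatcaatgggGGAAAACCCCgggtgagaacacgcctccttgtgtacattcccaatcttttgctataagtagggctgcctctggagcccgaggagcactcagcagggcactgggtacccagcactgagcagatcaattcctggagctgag
Overlapping matches in Cd83 run together in 1 stretch of capitals, and the script counted 3 matches there against 1 in each of the others. The consensus was found in 25.9% of the 27 chemokine promoters, in 6.67% of 60 promoters of absent genes raised in collagen, in 13.3% of 15 promoters of weaker genes raised by TNF, in 14.3% of 14 promoters of gained genes raised in fibrin, and in 4.67% of all 11805.

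Interferon-response genes, whose products restrict viruses and process antigens, showed how calls within each gel can differ without a call for the difference. Of 40 measured members, 24 rose in collagen and 5 in fibrin (Irf1, Psmb8, Psmb9, Psmb10 and Tap1), but only Bst2, which tethers virus particles to the cell, passed for the difference. At an unadjusted p under 0.05 in limma, however, 17 of the 40 differed between gels (42.5%, against 13.1% of all genes). The median effect was 0.66 in collagen and 0.26 in fibrin, with a median difference of -0.32, against 0.01 over all genes. The 24 became 13 without collagen control replicate 3, 11 without collagen TNF replicate 1 and 14 without collagen TNF replicate 3. The 5 became 12 without fibrin TNF replicate 2, 3 without fibrin control replicate 1, and 2 without fibrin control replicate 2 or 3 or fibrin TNF replicate 1 or 3.

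Mx1, a dynamin-like antiviral GTPase, read 6.51, 6.77 and 5.58 in collagen controls, 8.41, 7.76 and 7.94 with TNF, 11.16, 11.22 and 11.13 in fibrin controls and 11.55, 11.04 and 11.83 in fibrin with TNF. All fibrin arrays were far above all collagen arrays, and the fibrin groups overlapped. The effects were 1.75 and 0.30, and the difference of -1.45 (95% interval -2.29 to -0.61) did not pass (adjusted p = 0.1057). Irf7, the regulator of interferon genes, had a difference of -1.34 (adjusted p = 0.08487). Bst2 rose by 0.96 in collagen and had an effect of -0.04 in fibrin (95% interval -0.29 to 0.20), a difference of -1.0 (adjusted p = 0.008202).

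Of 36 measured angiogenic ligands and receptors, 7 rose and 3 fell in collagen, and 1 rose and 2 fell in fibrin. The effect was lower in fibrin for 4 and higher for 0. Over all genes, 3.27% rose and 3.1% fell in collagen, and 1.65% rose and 1.47% fell in fibrin. The effect was lower in fibrin for 0.866% of all genes. Between gels, 15 of the 36 differed at an unadjusted p under 0.05 in limma (41.7%, against 13.1% of all genes). Angpt1, the ligand that stabilizes vessels through the receptor Tek, read 6.14, 6.20 and 6.33 in collagen controls, 8.45, 8.32 and 8.80 with TNF, 7.44, 7.37 and 7.55 in fibrin controls and 7.77, 8.10 and 8.06 in fibrin with TNF. TNF arrays were above controls in both gels. The effect was 2.30 in collagen (4.93-fold) and 0.52 in fibrin (1.43-fold), and the difference was -1.78 (SE 0.17, adjusted p = 0.0004338). Apln, the apelin ligand, rose by 0.61 in collagen and had an effect of -0.32 in fibrin (difference -0.93, adjusted p = 0.007725).

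Dll4, the Notch ligand of sprouting tip cells, had effects of 0.38 and -0.37, called in neither gel, and a difference of -0.74 (adjusted p = 0.02762) that did not pass with the replicate block within each gel (adjusted p = 0.0952). Pdgfra, the platelet-derived growth factor receptor of fibroblasts, rose by 0.68 in collagen and had an effect of 0.03 in fibrin (difference -0.65, adjusted p = 0.03766), a call lost without any of 9 of the 12 arrays (adjusted p up to 0.1019). The Dll4 call was lost without any of 8. The count of 4 was 2 without collagen control replicate 2 or 3, collagen TNF replicate 2 or 3, or fibrin TNF replicate 1. The other 3 genes called for the difference and in neither gel were Ift43, Iah1 and Pgm1, each of which lost its call without at least 10 of the 12 arrays. Ift43 (adjusted p = 0.05626) and Iah1 (adjusted p = 0.06731) also lost it with the replicate block within each gel, where Pgm1 rose in collagen (adjusted p = 0.03141).

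Among cell type markers, none of 14 endothelial, 14 smooth muscle, 21 macrophage, 14 neutrophil, 19 T and NK cell, 8 B cell, 11 adipocyte, 9 Schwann cell or 7 erythroid and platelet markers passed in limma. Over all genes 1.24% passed, and at that share lists this short would hold few calls or none. At an unadjusted p under 0.05 the counts were 1, 4, 5, 2, 0, 2, 3, 1 and 0 in that order, against 13.1% of all genes. The shares were above that for smooth muscle (28.6%), adipocyte (27.3%), B cell (25%), macrophage (23.8%) and neutrophil markers (14.3%). They were below it for Schwann cell (11.1%), endothelial (7.14%), T and NK cell (0%) and erythroid and platelet markers (0%). Among 7 lymphatic endothelial markers only Ccl21 passed, among 9 pericyte markers only Anpep, a surface aminopeptidase (difference -0.92, adjusted p = 0.02686), and among 15 fibroblast markers Pdgfra and Mfap5. At an unadjusted p under 0.05, 5 of the 7 lymphatic (71.4%), 5 of the 9 pericyte (55.6%) and 6 of the 15 fibroblast markers differed. The Anpep call was lost without any of 7 of the 12 arrays (adjusted p up to 0.07588), and 2 pericyte markers passed without fibrin TNF replicate 2. The Ccl21 call was lost without any of 5 arrays, the Pdgfra call without any of 9 and the Mfap5 call without any of 8. The median difference was -0.40 over the lymphatic and -0.45 over the pericyte markers, against 0.01 over all genes. Of 28 cell cycle genes 0 passed, with 2 at an unadjusted p under 0.05.

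Macrophage markers had a lower mean level in fibrin throughout. The mean over 21 markers lay between 8.79 and 8.94 in collagen controls, 8.61 and 8.90 in collagen with TNF, 7.93 and 8.18 in fibrin controls and 7.80 and 7.99 in fibrin with TNF. The median difference of their TNF effects was -0.01. Chemokines such as Ccl9, and Cybb, can be made by macrophages, and the part of this level in the results for them was not tested.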

How the data were processed

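The deposited values were on a log2 scale, as read from their range, with 1 value per probe set and array. The authors' summarisation and normalization are not given in the sources used here, and limma is named in the submitters' processing notes without a version. Of 27342 probe sets, 15097 were assigned to 1 gene, 323 to several and 11922 to none here, and 15067 matched a RefSeq gene. Only probe sets of 1 gene were used, giving 14324 genes, each by its probe set of highest mean (499 genes had several).

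Levels were fitted with limma (lmFit, eBayes; version 3.58.1, under R 4.3.3), with a mean for each group, all 12 arrays and no filter. Tests were two-sided, with Benjamini-Hochberg adjustment over all genes for each contrast and a threshold of 0.05. Classes followed the calls within each gel. On simulated data with 200 of 14324 genes changed for the difference between gels, 37% of changes of 0.5 and 85% of changes of 1 (log2) were recovered, and 4.69% of calls were false. The simulated noise was normal and independent between arrays, without replicate pairing, and changes were added to the fibrin TNF arrays only. These shares therefore describe that setting and not the error of the calls reported here.

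Replicate numbers were checked for pairing. Deviations from the group means of same-numbered arrays correlated at 0.13, 0.14 and 0.14 in collagen and at 0.25, 0.14 and 0.16 in fibrin, so numbers were taken to pair arrays within a gel. The main fit, which gave the classes and every p-value not marked as blocked, used no block and so left this pairing out. With the block within each gel 208 genes passed for the difference, of which 144 were among the 177. Blocked values are given where they change a call or move a count by over 1.5 times.

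Members, gene lists and classes were chosen with earlier results of these data known. Named genes were the largest differences of each class (10 of absent genes raised in collagen, 4 of those called in neither gel, 6 of each other class and direction, all reversed), from each list the called members of lowest adjusted p, at most 4, and at most 3 others by level, and genes of the TNF pathway. Ccl2, Cxcl16, Lcn2, Ldha, Gys1, Higd1a, Ndrg1, Ucma, Gap43, Cybb, Nid2, Birc3, Adm, Slc2a1, Vegfa, Aldoc, Mx1, Irf7, Ccl5 and Sult1a1 were named after their values were seen. Promoters came from RefSeq (GRCr8) and matched 11805 of the 14324 genes. The alternatives were other normalizations, a filter on dim genes, other priors and weights, other probe set choices, replicate blocks, other class rules and leaving out each array.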

Additional observations from a re-analysis of the deposited data

Results flagged for a closer look

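The TNF effect differed between the gels, by the limma test of the difference itself, for 82 genes named in the text. Values are the TNF effect in fibrin minus that in collagen on the log2 scale, and their causes were not tested.

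Among genes raised in collagen with no call in fibrin, the differences were -4.80 for Hpx, -4.07 for Slpi, -2.64 for Scgb1b24, -2.32 for C3, -2.20 for Pla2g2a, -1.83 for Rgs2, -1.58 for Lcn2, -1.28 for Ucma, -1.23 for Gap43, -1.17 for Stc2, -1.07 for Cyp1b1, -1.0 for Bst2, -0.93 for Apln, -0.93 for Nid2, -0.91 for Timp1, -0.70 for Cybb, -0.65 for Pdgfra and -0.56 for Nfkbiz. In the same class, chemokines and a protease had -1.95 for Ccl12, -1.75 for Ccl20, -1.73 for Cxcl13, -1.71 for Ccl21, -1.26 for Ccl2 and -1.71 for Mmp9, and metabolic genes had -1.10 for Slc16a3, -1.08 for Higd1a, -0.97 for Gys1 and -0.50 for Ldha. Genes raised more weakly in fibrin had -2.96 for Orm1, -2.53 for Ccl9, -2.13 for Nos2, -2.11 for Scin, -1.95 for Ccl7, -1.94 for Mmp3, -1.86 for Ccl19, -1.78 for Angpt1, -1.69 for Cyp7b1, -1.35 for Ptges, -0.86 for Adamts4 and -0.57 for Cxcl16.

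Genes lowered in collagen with no call in fibrin had 1.39 for Fcmr, 1.26 for 6330403K07Rikl, 1.20 for Dio3, 1.06 for Cytl1, 1.01 for Kit and 0.97 for Itm2a, and genes lowered more weakly had 0.86 for Akr1c15, 0.75 for Akr1c19, 0.72 for Nox4 and 0.57 for Mfap5. Genes of opposite response had -2.31 for Gabrp, -2.11 for Steap4, -0.91 for Serpina3n, -0.87 for Fxyd6, -0.79 for Pfkl, -0.66 for Xpnpep2, 1.74 for Gdf15 and 0.87 for Clybl.

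Genes raised in fibrin with no call in collagen had 1.75 for Sele, 1.30 for Olr1, 1.18 for Cd83, 1.16 for Il33, 0.84 for Depp1, 0.83 for Pir, 0.67 for Gstm1, 0.66 for Csf1 and 0.54 for Gstp1, and Cd69, raised in both gels, had 1.53. Genes lowered in fibrin with no call in collagen had -3.36 for Car9, -1.64 for Aldh3a1, -1.23 for Wnt16, -1.15 for Rasd1, -1.14 for Rxfp3, -0.92 for Anpep, -0.85 for Pdk1 and -0.84 for Ndrg1, and Akr1c14, lowered in both, had -1.44. Genes called in neither gel had 0.67 for Ift43, 0.63 for Gclm, 0.43 for Iah1, -0.74 for Dll4 and -0.48 for Pgm1.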

How the results depend on the processing

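Of the 82 named genes called for the difference, 49 kept the call in every setting, 32 lost it in at least 1 fit without 1 array, and 0 reversed. Of the 177 genes, 170 were measured after the dim filter, and all that were measured kept their sign in every setting. Kept signs are not separate evidence, since the genes were selected for large differences on the same arrays. The 177 calls became 294 without the third of genes of lowest mean (108 higher, 165 absent, 15 reversed, 60 gained, 23 neither) and 339 with a trended and robust prior (127 higher, 212 lower, 191 absent, 14 reversed, 74 gained, 26 neither). With replicate numbers as a block over both gels they became 276 (89 higher, 187 lower, 162 absent, 17 reversed, 54 gained, 4 stronger, 13 neither), where same-numbered arrays of the 2 gels correlated at 0.23, 0.08 and 0.13 between controls and at 0.05, 0.03 and 0.14 between TNF arrays, so that pairing across gels is not settled. With the replicate block within each gel they became 208 (15 reversed, 2 neither), of which 144 were among the 177, and the calls of named genes that changed stand beside those genes, with the call of Nid2 in collagen (adjusted p = 0.09993) lost as well. Quantile normalization gave 1 stronger and 10 neither, array weights 2 neither, and all probe sets 3 reversed and 9 neither. Fitting the fibrin arrays alone gave 230 calls there. Classes by unadjusted p gave 35 weaker, 45 reversed and 0 neither, and by the ratio of effects 62 absent, 57 reversed and 0 neither. Without 1 array, the calls ranged from 103 to 246 (22 to 77 higher, 81 to 169 lower), those in collagen from 568 to 940 and in fibrin from 237 to 539, with 14 to 24 weaker, 53 to 118 absent, 3 to 17 reversed, 20 to 76 gained, 1 to 5 stronger and 2 to 12 neither. The causes were not tested. With 3 arrays a group, changes of the size of the median SE could not be resolved, and whether levels near the array maximum, as for Cxcl13, limit its measured effect was not tested.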
